A study of Mus musculus with 13 samples.

Results

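The genes described here belong to the endoplasmic reticulum (ER) stress response and the integrated stress response. They are the 10 genes Atf3, Atf4, Ddit3, Hspa5, Trib3, Xbp1, Herpud1, Dnajb9, Asns and Chac1, taken by matching mouse symbols to the Entrez gene identifiers of the deposited tables, and they are 10 of the 23785 genes listed there. All 10 were found in each table and passed the filter on low counts in each comparison. Liver RNA was sequenced from 13 C57 mice of 3 months. The no BDL group held 5 mice without bile duct ligation (BDL), labelled as non treated. In the miR-Ctrl BDL group 4 mice were ligated and received a control oligonucleotide, and in the anti-miR-873-5p BDL group 4 mice were ligated and received a hairpin inhibitor of the microRNA miR-873-5p. Both oligonucleotides were given into the tail vein at 60 µg per mouse on days 3 and 5 after ligation, and livers were taken on day 7. The labels name no oligonucleotide for the mice without BDL and do not say whether they had a sham operation. The effects of surgery, ligation and injection therefore cannot be told apart in the comparisons with no BDL. The 2 tables that include no BDL hold all 4 mice of each BDL group, whereas the table of the 2 BDL groups holds 3 mice of each. Anti-miR-873-5p mouse 2 and miR-Ctrl mouse 3 are absent from that last table. The study states in general that any outliers seen by principal components or clustering were left out, without tying this to a table or a mouse. Mice are numbered within a group and equal numbers are different animals.

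Cells answer to unfolded protein in the ER through 3 membrane sensors, the kinase and nuclease IRE1 (Ern1), the kinase PERK (Eif2ak3) and the transcription factor ATF6. IRE1 splices the mRNA of Xbp1, ATF6 is released by cleavage in the Golgi, and both factors switch on chaperones such as Hspa5 and degradation factors such as Herpud1. PERK phosphorylates the translation factor eIF2α, as do the kinases that sense amino acid shortage, heme shortage and double-stranded RNA, and this common step, the integrated stress response, favours translation of Atf4, whose protein induces Ddit3, Trib3, Asns and Chac1. In the liver the response is known from secretory load, from starvation for amino acids and from bile acid toxicity. Counts of reads per gene do not report splicing of Xbp1, phosphorylation or translation of Atf4, so the values below are mRNA levels only.

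Some known elements of both arms were searched in the promoters of the members, and 4 promoters are shown. Hspa5 was the only member with the ER stress response element in the form searched. Asns, Trib3 and Herpud1 are examples with the C/EBP-ATF response element. Other forms of these elements were not searched, so a promoter without a match, or with a match for 1 arm, may hold further elements of either arm. Ddit3 and Xbp1 held none of the motifs searched. Windows of 250 bases before and 50 bases from the transcript start were taken from RefSeq (GRCm38.p6) and searched on both strands. The ER stress response element, written as CCAAT and CCACG with 9 bases between them and bound by ATF6 and XBP1 together with NF-Y, was present in 1 of the 10 members, Hspa5, and in 0.119% of all 32851 windows. The C/EBP-ATF response element, searched as TGATGNAAN and bound by ATF4 with its partners, was present in 5 members (Atf3, Trib3, Herpud1, Asns and Chac1) and in 3.95% of all windows. CCACG alone, which is also a part of the first element, was present in 6 members and in 32.8% of all windows. The unfolded protein response element TGACGTGG was found in 0 members and 0.676% of windows, and the cAMP response element TGACGTCA in 0 members and 1.79% of windows. These are matches of letters in these windows and not binding sites. The sequences below are written 5′ to 3′ on the strand of the gene, with the ER stress response element (Hspa5) or the C/EBP-ATF response element (Asns, Trib3 and Herpud1) in capitals.
Hspa5: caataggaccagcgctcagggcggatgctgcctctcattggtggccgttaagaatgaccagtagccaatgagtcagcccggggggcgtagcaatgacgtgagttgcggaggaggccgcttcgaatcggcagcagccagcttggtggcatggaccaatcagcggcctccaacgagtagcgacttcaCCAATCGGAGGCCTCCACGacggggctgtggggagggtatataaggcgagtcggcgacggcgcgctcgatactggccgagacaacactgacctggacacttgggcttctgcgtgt
Asns: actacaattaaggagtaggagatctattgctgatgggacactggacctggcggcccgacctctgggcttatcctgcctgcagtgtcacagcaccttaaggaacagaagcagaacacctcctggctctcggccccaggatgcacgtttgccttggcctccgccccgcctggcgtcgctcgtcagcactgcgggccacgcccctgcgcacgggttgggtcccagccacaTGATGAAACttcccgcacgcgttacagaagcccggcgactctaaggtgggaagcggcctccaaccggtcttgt
Trib3: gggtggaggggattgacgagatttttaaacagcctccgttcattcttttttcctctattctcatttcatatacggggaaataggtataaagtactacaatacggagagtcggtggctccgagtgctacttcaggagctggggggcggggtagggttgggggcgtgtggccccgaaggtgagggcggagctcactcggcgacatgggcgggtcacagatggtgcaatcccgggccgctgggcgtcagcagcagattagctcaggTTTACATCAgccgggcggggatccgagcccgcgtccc
Herpud1: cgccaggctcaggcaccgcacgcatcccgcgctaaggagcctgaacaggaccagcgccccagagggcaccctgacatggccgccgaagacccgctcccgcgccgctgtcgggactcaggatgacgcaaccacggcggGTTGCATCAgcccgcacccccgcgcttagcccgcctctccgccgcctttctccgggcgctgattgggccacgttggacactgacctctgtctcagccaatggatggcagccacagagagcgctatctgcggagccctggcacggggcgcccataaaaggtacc
The Hspa5 window lies at chr2:34771840-34772139, plus strand, and its element begins 65 bases before the start. That of Asns lies at chr6:7693160-7693459, minus strand, with its element beginning 23 bases before the start. The Trib3 window lies at chr2:152344011-152344310, minus strand, where the element begins at base 14 of the transcript on the opposite strand. The Herpud1 window lies at chr8:94386179-94386478, plus strand, and its element, also on the opposite strand, begins 113 bases before the start.

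Gene counts of a mouse summed to 14610598 to 19689037 reads in no BDL, 12185333 to 14923369 in miR-Ctrl BDL and 12857186 to 15163990 in anti-miR-873-5p BDL. Values of single mice are normalized counts, that is CPM (read counts scaled to a common library size) after scaling all 13 mice together with TMM, and they compare mice within a gene. The TMM factors were 0.624 to 0.86 in no BDL, 1.08 to 1.34 in miR-Ctrl BDL and 1.12 to 1.45 in anti-miR-873-5p BDL. Depth and these factors thus differed along with ligation, and their part in the comparisons with no BDL was not tested. Cell type markers moved with ligation. Summed normalized counts of 8 cholangiocyte markers were 47.2 to 137 in no BDL, 498 to 1750 in miR-Ctrl BDL and 246 to 1690 in anti-miR-873-5p BDL, mostly from Spp1, and those of 8 hepatocyte markers such as albumin were 99100 to 118000, 45100 to 77100 and 40100 to 87900. Without Spp1 the other 7 cholangiocyte markers summed to 12.3 to 17.5, 57.8 to 94.9 and 50.9 to 140. All 8 cholangiocyte markers were higher in both BDL groups in edgeR's test, and 4 and 2 of the 8 hepatocyte markers were lower. All marker genes of hepatocytes were found in every mouse, as the label of the tissue requires. Of 8 macrophage markers 7 and 3 were higher, and of 8 stellate cell markers 5 and 5. Macrophage sums ranged over 124 to 713 in no BDL against 780 to 1870 and 506 to 1550 in the BDL groups. Neutrophil sums ranged over 8.57 to 22.6 against 25.2 to 250 and 20.8 to 82.8, and stellate cell sums over 87.7 to 137 against 250 to 677 and 135 to 830. For plasma and B cell markers the ranges were 179 to 252, 386 to 528 and 303 to 480, mostly from Sdc1. Without Sdc1 the other 7 markers did not rise, with sums of 3.43 to 7.04, 2.25 to 3.84 and 1.67 to 4.27. T and natural killer cell sums (1.4 to 6.2, 0.916 to 10.7 and 0.758 to 5.49) and endothelial sums (98.7 to 156, 34.2 to 155 and 50.1 to 147) overlapped between groups, and pancreas markers stood at 16.6 to 47.4, 6.49 to 7.83 and 5.75 to 10.3. The pancreas sums came mostly from 1 gene, Cela1, and 5 or 6 of the 8 pancreas markers had 0 reads in each mouse. In whole liver, a change in the share of a cell type and a change of RNA level per cell cannot be told apart, and the part of the cell types in the results below was not tested.

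Of the 13072 genes tested for miR-Ctrl BDL against no BDL, 35.7% passed an adjusted p of 0.05 with edgeR's quasi-likelihood test, 19.1% higher and 16.6% lower. Against this background 1 of the 10 members passed, Herpud1, which was lower, and 0 were higher. For anti-miR-873-5p BDL compared with no BDL 21.5% of 13130 genes passed (13.1% higher and 8.44% lower), and of the members 0 did, with 2 at an unadjusted p under 0.05 (Xbp1 and Ddit3) and 1, Xbp1, past the threshold in DESeq2's Wald test. Between the 2 BDL groups 0% of 13746 genes passed, and 0 of the members did, neither at an unadjusted p under 0.05 nor with DESeq2, where 863 genes had an unadjusted p under 0.05 in edgeR and 30 genes passed in DESeq2. The median log2 fold change of the 10 members was 0.34, 0.08 and 0.02 in the 3 comparisons, beside -0.01, -0.01 and 0.01 over all genes tested. The comparisons with no BDL share their control mice, and their values are given side by side. Scaling by library size alone moved the median of all genes to 0.79 and 0.82 against no BDL and the calls to 9360 higher and 275 lower for miR-Ctrl BDL, from 2491 and 2175, and to 10063 and 131 for anti-miR-873-5p BDL, from 1715 and 1108. Fold changes below are those after TMM scaling, relative to the bulk of genes.

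**Figure D1:**
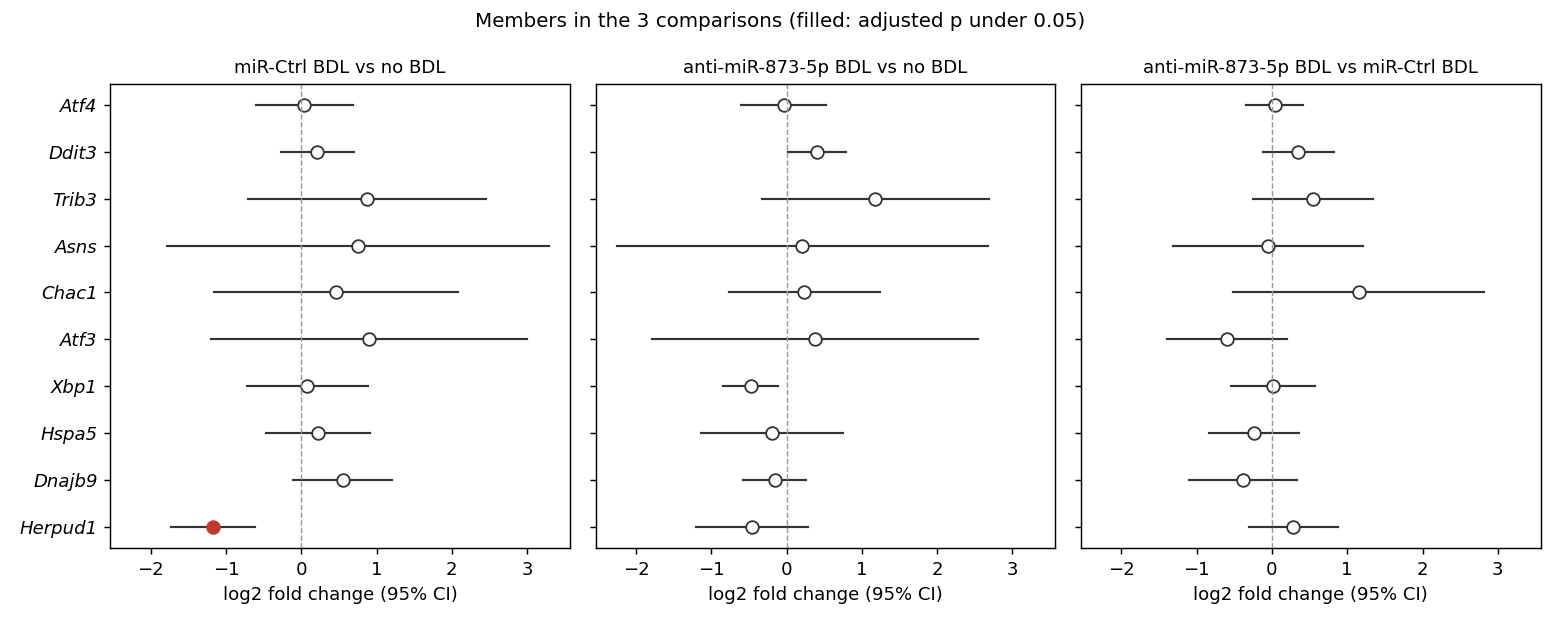
Log2 fold change of the 10 members (rows) in the 3 comparisons (panels), with points for the edgeR estimate and lines for its 95% confidence interval. The only filled point, an adjusted p under 0.05, is Herpud1 in miR-Ctrl BDL against no BDL at -1.17, and the widest intervals are those of Asns and Atf3 against no BDL.

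Herpud1 encodes an ER membrane protein that brings unfolded proteins to the ubiquitin ligase complex of ER-associated degradation. It was the only member past the threshold in edgeR with all mice, lower in miR-Ctrl BDL than in no BDL. The gene lies on chromosome 8 from 94386429 to 94395371 (GRCm38, plus strand). Normalized counts were 420, 398, 371, 338 and 205 in no BDL mice 1 to 5 and 92.5, 155, 167 and 191 in miR-Ctrl BDL mice 1 to 4. Each miR-Ctrl BDL mouse was below every mouse without BDL, with 151 ± 41.9 (SD, n = 4) against 346 ± 84.8 (SD, n = 5). The log2 fold change was -1.17 (standard error, SE, 0.25, 95% confidence interval -1.73 to -0.61), which is 2.25-fold lower, with an adjusted p of 0.00582 (edgeR's quasi-likelihood test, adjusted after Benjamini and Hochberg). Leaving out any single mouse gave log2 fold changes from -1.31 to -1, with adjusted p of 0.00151 to 0.0175, whereas with scaling by library size alone, where the median of all genes stood at 0.79, it was -0.38 (adjusted p = 0.183).

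Herpud1 values in anti-miR-873-5p BDL were 173, 466, 196 and 165 in mice 1 to 4. Mice 1, 3 and 4 were below every mouse without BDL, while mouse 2 was above all of them. The log2 fold change with the 4 mice was -0.46 (SE 0.33, adjusted p = 0.358). Without mouse 2 it was -0.94 (SE 0.23) and passed, with an adjusted p of 0.014, so 1 mouse decided this call. Set directly against each other in the 3 mice per group of their table, the 2 BDL groups gave 0.28, higher in anti-miR-873-5p BDL (95% confidence interval -0.31 to 0.87, adjusted p = 0.861). The 3 retained mice of anti-miR-873-5p BDL (178 ± 15.9, SD, n = 3) overlapped those of miR-Ctrl BDL (146 ± 49.8, SD, n = 3).

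**Figure D2:**
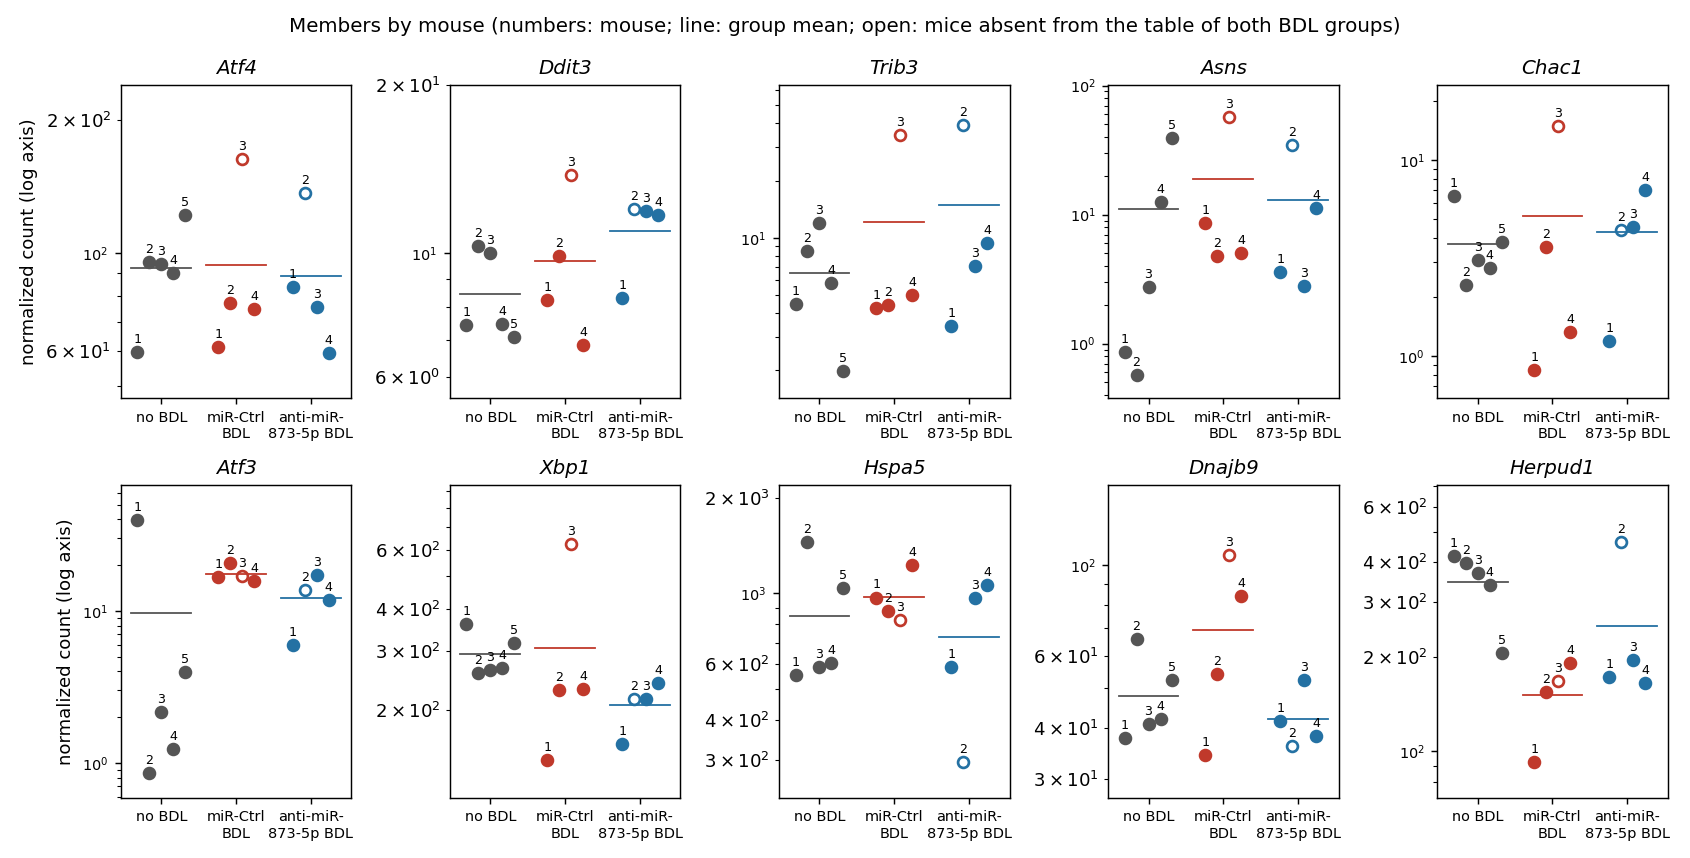
Normalized counts (log axis) of the 10 members in each of the 13 mice, by group, with the number of the mouse above each point, the group mean as a line and open points for the mice that the table of the 2 BDL groups lacks. Herpud1 was 92.5 to 191 in miR-Ctrl BDL, below 205 to 420 in no BDL, and the open points are the highest of their group for Atf4, Trib3 and Asns.

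Hspa5, which encodes the main ER chaperone BiP and had the highest level of the members per length, was not past the threshold in any comparison. Per kilobase of merged exons, levels were 201 ± 92.9 (SD, n = 5) normalized counts in no BDL, 231 ± 42.5 (SD, n = 4) in miR-Ctrl BDL and 172 ± 83.4 (SD, n = 4) in anti-miR-873-5p BDL. Herpud1 at 148, Xbp1 at 90 and Atf4 at 39.2 followed per kilobase in no BDL, Dnajb9 stood at 18.8, and the remaining members were between 2.27 and 4.94. Single mice had 556, 1450, 587, 603 and 1040 normalized counts of Hspa5 in no BDL, 971, 882, 823 and 1230 in miR-Ctrl BDL and 588, 296, 967 and 1060 in anti-miR-873-5p BDL. The groups overlapped, and anti-miR-873-5p mouse 2, which had the highest Herpud1, had the lowest Hspa5. Log2 fold changes were 0.23 (SE 0.31, adjusted p = 0.608) for miR-Ctrl BDL and -0.19 (SE 0.43, adjusted p = 0.78) for anti-miR-873-5p BDL, both relative to no BDL, and -0.24 (95% confidence interval -0.84 to 0.36, adjusted p = 0.882) between the BDL groups.

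Dnajb9 encodes ERdj4, a co-chaperone of BiP that is induced by XBP1 and restrains IRE1. Its normalized counts were 37.8, 66.1, 40.8, 42.1 and 52.4 in no BDL, 34.3, 54.1, 106 and 83.8 in miR-Ctrl BDL and 41.6, 36.1, 52.3 and 38.2 in anti-miR-873-5p BDL. MiR-Ctrl mice 3 and 4 were above all other mice, and mouse 1 of that group was below all others. The log2 fold change of miR-Ctrl BDL against no BDL was 0.55 (SE 0.30, adjusted p = 0.173) and passed without miR-Ctrl mouse 1, at 0.77 (adjusted p = 0.0395). For anti-miR-873-5p BDL it was -0.16 (adjusted p = 0.579), and between the BDL groups -0.38 (95% confidence interval -1.10 to 0.33, adjusted p = 0.848). Of the 50-base windows of its transcripts 5.5% also occur in the predicted gene Gm6568, so a small part of its reads could have been counted elsewhere.

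Xbp1, the transcription factor whose mRNA IRE1 splices, had 360, 258, 263, 266 and 316 normalized counts in no BDL, 141, 229, 623 and 231 in miR-Ctrl BDL and 158, 215, 215 and 240 in anti-miR-873-5p BDL. All 4 anti-miR-873-5p BDL mice and miR-Ctrl mice 1, 2 and 4 were below every mouse without BDL, and miR-Ctrl mouse 3 was the highest of all 13. In anti-miR-873-5p BDL Xbp1 had a log2 fold change of -0.48 against no BDL (SE 0.17, unadjusted p = 0.0157, adjusted p = 0.0643 in edgeR). DESeq2 gave -0.47 with an adjusted p of 0.0226, and in edgeR leaving out single mice gave adjusted p of 0.0555 to 0.138. In miR-Ctrl BDL Xbp1 stood at 0.08 on the log2 scale (SE 0.36, adjusted p = 0.882) with the 4 mice and -0.52 (SE 0.19, adjusted p = 0.0467) without mouse 3, so that mouse turned the direction. Between the BDL groups, whose table lacks that mouse, it was 0.02 (95% confidence interval -0.54 to 0.57, adjusted p = 0.994). Counts of Xbp1 differed by up to 0.827% for the same mouse between tables. Values of no BDL and miR-Ctrl BDL mice are those of their common table.

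Atf3, a transcription factor induced by ATF4 and also by acute injury, stood higher in the BDL groups except against 1 mouse without BDL. It had 39.9, 0.857, 2.15, 1.23 and 3.97 normalized counts in no BDL, 16.8, 20.6, 16.9 and 15.8 in miR-Ctrl BDL and 6, 13.7, 17.3 and 11.8 in anti-miR-873-5p BDL. No BDL mouse 1 was above all mice, and the other 4 mice without BDL were below every BDL mouse. With all mice the log2 fold changes were 0.90 (SE 0.94, adjusted p = 0.491) for miR-Ctrl BDL and 0.38 (SE 0.97, adjusted p = 0.812) for anti-miR-873-5p BDL. Without no BDL mouse 1 they were 3.10 (SE 0.39, adjusted p = 0.00133) and 2.58 (SE 0.48, adjusted p = 0.0131), both past the threshold in edgeR. That mouse also had a summed level of 1610 over 10 immediate-early genes such as Fos and Egr1, which respond within minutes to handling and injury, against 199 to 572 in the other mice without BDL, 338 to 747 in miR-Ctrl BDL and 276 to 598 in anti-miR-873-5p BDL. Any part of this in the Atf3 value was not tested. For the 2 BDL groups the log2 fold change was -0.60 (95% confidence interval -1.40 to 0.20, adjusted p = 0.802).

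Atf4, the central transcription factor of the integrated stress response, is regulated mostly at translation, and its mRNA had group means of 92.3 ± 22.1 (SD, n = 5), 94.1 ± 46.6 (SD, n = 4) and 88.8 ± 33.4 (SD, n = 4) normalized counts. Single mice had 59.7, 95.3, 94.7, 90.3 and 122 in no BDL, 61.3, 77.1, 163 and 74.7 in miR-Ctrl BDL and 83.9, 137, 75.5 and 59.4 in anti-miR-873-5p BDL. Anti-miR-873-5p mouse 2 and miR-Ctrl mouse 3 were the highest of all mice. Log2 fold changes were 0.04 (95% confidence interval -0.61 to 0.69) and -0.04 (95% confidence interval -0.60 to 0.52) against no BDL and 0.03 (95% confidence interval -0.34 to 0.41) between the BDL groups, with adjusted p of 0.927, 0.926 and 0.976 in edgeR.

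Trib3, a pseudokinase induced by ATF4 and CHOP that feeds back on ATF4, showed the same mice. It had 4.49, 8.48, 12, 5.75 and 1.99 normalized counts in no BDL, 4.27, 4.41, 34.6 and 4.98 in miR-Ctrl BDL and 3.44, 39.3, 7.12 and 9.33 in anti-miR-873-5p BDL. Apart from anti-miR-873-5p mouse 2 and miR-Ctrl mouse 3, all BDL mice lay within the range of the mice without BDL. Log2 fold changes against no BDL were 0.88 (SE 0.71, adjusted p = 0.367) and 1.18 (SE 0.68, adjusted p = 0.242), and they were -0.50 and 0.05 without those mice. It was 0.54 between the BDL groups (95% confidence interval -0.25 to 1.34, adjusted p = 0.811).

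Asns encodes asparagine synthetase, the classical ATF4 target of amino acid shortage, and varied widely between mice of a group. Its normalized counts were 0.863, 0.572, 2.75, 12.5 and 38.9 in no BDL, 8.55, 4.77, 57.4 and 5.04 in miR-Ctrl BDL and 3.56, 34.4, 2.78 and 11.2 in anti-miR-873-5p BDL. The highest values of the BDL groups were again in anti-miR-873-5p mouse 2 and miR-Ctrl mouse 3, and the value of no BDL mouse 5 lay between them. Log2 fold changes were 0.75 (SE 1.14, adjusted p = 0.645) and 0.21 (SE 1.11, adjusted p = 0.913) against no BDL and -0.06 (95% confidence interval -1.32 to 1.21, adjusted p = 0.988) between the BDL groups. Leaving out single mice moved the first from -0.85 to 2.16 and the second from -0.90 to 1.62, so no direction can be read for Asns, which passed the filter on low counts through the BDL mice, with 3 mice without BDL above its cutoff where 4 were needed.

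Chac1, an enzyme that degrades glutathione and a target of the ATF4 and CHOP branch, was low in all mice, with 6.56, 2.29, 3.09, 2.79 and 3.81 normalized counts in no BDL, 0.843, 3.57, 14.9 and 1.32 in miR-Ctrl BDL and 1.19, 4.4, 4.53 and 6.98 in anti-miR-873-5p BDL. MiR-Ctrl mouse 3 was the highest of all mice, and otherwise the groups overlapped. Its log2 fold change between the BDL groups was 1.15, the largest of the members in that comparison, with a SE of 0.71, a 95% confidence interval of -0.52 to 2.82 and an adjusted p of 0.811. With all 4 mice of each group it turned to -0.24 (adjusted p = 0.993). Against no BDL it was 0.46 (adjusted p = 0.658) in miR-Ctrl BDL, turning to -0.93 (adjusted p = 0.155) without mouse 3, and for anti-miR-873-5p BDL 0.24 (adjusted p = 0.742), turning to -0.12 without mouse 4, so no direction can be read for Chac1.

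Ddit3 encodes CHOP, the transcription factor that links prolonged ER stress to cell death. Its normalized counts were 7.43, 10.3, 10, 7.48 and 7.07 in no BDL, 8.25, 9.89, 13.8 and 6.84 in miR-Ctrl BDL and 8.31, 12, 11.9 and 11.7 in anti-miR-873-5p BDL. Anti-miR-873-5p mice 2, 3 and 4 were above every mouse without BDL, and mouse 1 was within their range. Against no BDL, Ddit3 had a log2 fold change in anti-miR-873-5p BDL of 0.40 (SE 0.17, unadjusted p = 0.0421, adjusted p = 0.123 in edgeR), for miR-Ctrl BDL 0.21 (SE 0.21, adjusted p = 0.47), and between the BDL groups 0.35 (95% confidence interval -0.12 to 0.83, adjusted p = 0.805). Exons of other genes, among them Mars1 on the opposite strand, overlap 4.73% of its exon bases, and reads there cannot be assigned to a strand with this kit.

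Anti-miR-873-5p mouse 2 and miR-Ctrl mouse 3 thus stood apart for several members, high for Atf4, Trib3 and Asns, while for Hspa5 anti-miR-873-5p mouse 2 was low and miR-Ctrl mouse 3, at 823, was the lowest of its group but close to the 882 of mouse 2. Some lists of other genes of the pathway showed the same, and others did not. For each gene the mouse with the highest and the mouse with the lowest normalized count of the 4 in a BDL group was noted. Over all 13682 genes with enough counts, miR-Ctrl mouse 3 was the highest for 38.3% and the lowest for 38.3%, and anti-miR-873-5p mouse 2 was the highest for 36.3% and the lowest for 38%, so both were often extreme in either direction.

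Among 24 genes of amino acid supply and tRNA charging, which are ATF4 targets, miR-Ctrl mouse 3 was the highest for 18 (75%) and the lowest for 0. Anti-miR-873-5p mouse 2 was the highest for 16 (66.7%) and the lowest for 4. Among 17 stress regulators and secreted targets they were the highest for 12 (70.6%) and 11 (64.7%). Among 18 ER chaperones and folding enzymes the order was the other way, with miR-Ctrl mouse 3 the lowest for 13 (72.2%) and anti-miR-873-5p mouse 2 the lowest for 14 (77.8%), and each the highest for 3. The remaining lists were mixed. Among 14 sensors and transducers miR-Ctrl mouse 3 was the highest for 6 and the lowest for 2. Anti-miR-873-5p mouse 2 was the highest for 7 and the lowest for 6. Among 18 genes of ER-associated degradation and export they were the highest for 5 and 4, and the lowest for 7 and 10. Of the 10 members miR-Ctrl mouse 3 was the highest for 7 and the lowest for 1, and anti-miR-873-5p mouse 2 the highest for 5 and the lowest for 2. The lists and these counts are a description without a test, since these mice are missing from a table made from the same libraries.

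Summed normalized counts of the 18 chaperones were 4840 to 7710 in no BDL, while they were 5410 in miR-Ctrl mouse 3 against 5650, 6610 and 6810 in the other mice of its group, and 3460 in anti-miR-873-5p mouse 2 against 4730, 6250 and 6760. For the amino acid and tRNA synthetase list the sums were 2740 against 1630 to 1730 in miR-Ctrl BDL and 3620 against 1600 to 1930 in anti-miR-873-5p BDL, with 1940 to 2290 in no BDL. Within each BDL group these 2 mice also had the lowest stellate cell sums, 250 against 353 to 677 and 135 against 529 to 830, and these stayed the lowest without Col3a1, the marker of the highest level (189 against 226 to 389 and 105 against 296 to 491). Their cholangiocyte sums were the lowest too, through Spp1, which stood at 403 against 1080 to 1660 and 195 against 1190 to 1600. The other 7 cholangiocyte markers summed to 94.9 in miR-Ctrl mouse 3, the highest of its group (57.8 to 88.9 in the others), and to 50.9 in anti-miR-873-5p mouse 2 against 53.9 to 140. The neutrophil sum was 250 in miR-Ctrl mouse 3, the highest of all mice, and 20.8 in anti-miR-873-5p mouse 2, the lowest of its group. Their endothelial sums were the lowest, 34.2 against 87.5 to 155 and 50.1 against 83.3 to 147. T and natural killer cell sums were too, 0.916 against 2.77 to 10.7 and 0.758 against 1.69 to 5.49. Hepatocyte sums were 47400 against 45100 to 77100 and 87900 against 40100 to 61200. Without albumin they were 13100 against 9930 to 13000 and 21600 against 9510 to 15400. Sums of the 10 immediate-early genes were the highest of their groups in these mice, 747 against 338 to 485 and 598 against 276 to 477. The part of these cell types, or of handling, in the stress gene values was not tested.

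**Figure D3:**
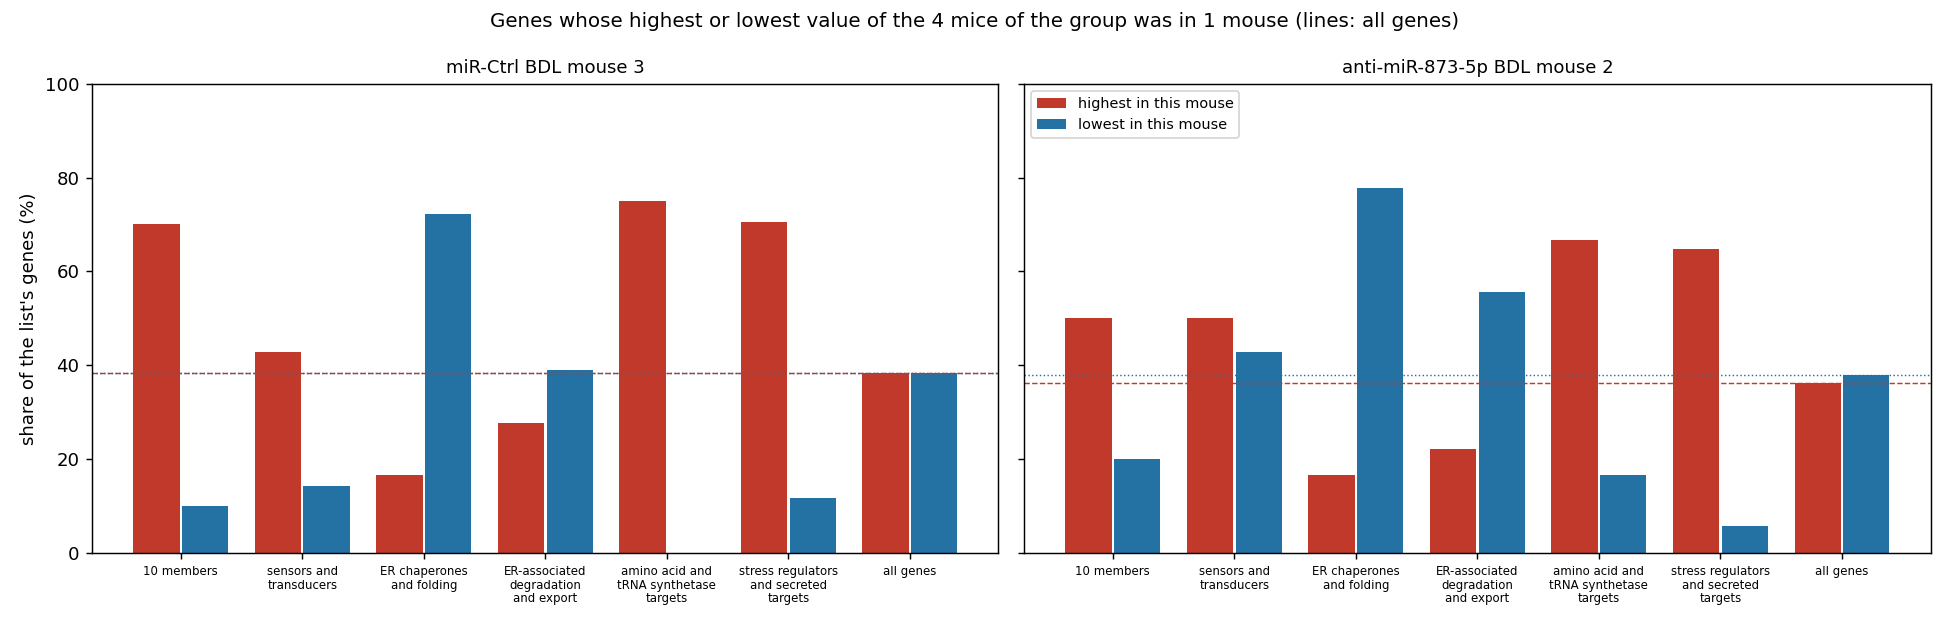
Share of the genes of each list (horizontal axis) for which miR-Ctrl mouse 3 (left) or anti-miR-873-5p mouse 2 (right) had the highest (red) or lowest (blue) normalized count of the 4 mice of its group, with lines for all genes. Amino acid and tRNA synthetase targets were highest there in 75% and 66.7% of genes, and chaperones were lowest there in 72.2% and 77.8%.

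The group comparisons were then read across the lists of the pathway. Of 90 other pathway genes tested for miR-Ctrl BDL against no BDL, 15 were higher and 5 lower (22.2%, below the 35.7% of all genes), and of 91 for anti-miR-873-5p BDL 8 were higher and 3 lower (12.1%, below 21.5%). Between the BDL groups 0 of 91 passed in edgeR and in DESeq2, with 7 at an unadjusted p under 0.05 in edgeR. Without no BDL mouse 4, 13 passed in miR-Ctrl BDL. Without anti-miR-873-5p mouse 2, 18 pathway genes passed in that group compared with no BDL, and without no BDL mouse 1, 4 did, while 2 further mice without BDL and anti-miR-873-5p mice 3 and 4, left out in turn, gave 5 to 7. Among 18 chaperones 0 passed in any comparison, with median log2 fold changes of 0.08, -0.14 and -0.12. Of the 18, 11, 4 and 1 had a positive log2 fold change.

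Of 14 sensors and transducers 2 rose and 1 fell in miR-Ctrl BDL, and 0 passed in anti-miR-873-5p BDL (21.4% and 0%, beside 35.7% and 21.5% of all genes). Eif2ak3, the ER kinase PERK, had 10.2, 17.5, 12.8, 10.4 and 13 normalized counts in no BDL, 20.6, 24.9, 24 and 20.6 in miR-Ctrl BDL and 16.2, 18.2, 23.1 and 14.7 in anti-miR-873-5p BDL. Every miR-Ctrl BDL mouse was above every mouse without BDL, with a log2 fold change for Eif2ak3 of 0.84 (SE 0.17, adjusted p = 0.00392), against 0.52 (SE 0.19, adjusted p = 0.0768) for anti-miR-873-5p BDL. Creb3l2, an ER-bound transcription factor that is cleaved like ATF6, had 2.94 to 5.48 in no BDL, 9.45 to 11.3 in miR-Ctrl BDL and 5.08 to 8.63 in anti-miR-873-5p BDL, with log2 fold changes of 1.36 (SE 0.22, adjusted p = 0.00161) and 0.76 (SE 0.26, adjusted p = 0.0626). In DESeq2's Wald test both passed for this group (adjusted p = 0.049 for Eif2ak3 and 0.0262 for Creb3l2), and Creb3l2 did with all 3 groups in 1 edgeR fit (adjusted p = 0.0307). Without no BDL mouse 2, Eif2ak3 passed for anti-miR-873-5p BDL too (adjusted p = 0.0347), and Creb3l2 did without no BDL mouse 5 (adjusted p = 0.0353) or anti-miR-873-5p mouse 2 (adjusted p = 0.0338). Eif2ak1, the heme-regulated kinase, fell in miR-Ctrl BDL by 0.50 on the log2 scale (SE 0.11, adjusted p = 0.00695), from 37.9 to 52.2 normalized counts to 27 to 31.9. It changed direction when libraries were scaled by size alone, to 0.29. Ern1, which encodes IRE1, and Atf6 did not pass, with log2 fold changes of -0.31 (adjusted p = 0.432) and -0.06 (adjusted p = 0.778) in miR-Ctrl BDL, and in anti-miR-873-5p BDL of -0.50 (adjusted p = 0.301) and -0.12 (adjusted p = 0.455).

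Among 24 amino acid and tRNA synthetase genes 8 rose and 1 fell in miR-Ctrl BDL, and 4 rose in anti-miR-873-5p BDL. These shares of 37.5% and 16.7% are near the 35.7% and 21.5% of all genes and are no result about the list. Of the genes named from it, Psat1 and Phgdh, both enzymes of serine synthesis, and Slc7a1 passed the filter on low counts in either comparison through the BDL mice alone, since fewer than 4 mice without BDL reached its cutoff, so their fold changes are given as values of these genes only. Each of the 3 was past the threshold in both comparisons also when all genes with at least 1 count were kept. Psat1 had 0.191 to 1.35 normalized counts in no BDL, 2.29, 2.68, 24.1 and 2.16 in miR-Ctrl BDL and 1.62, 16.4, 1.57 and 4.91 in anti-miR-873-5p BDL. Every BDL mouse was above every mouse without BDL, with the highest values in the same 2 mice as for Asns. Log2 fold changes were 3.37 (SE 0.87, adjusted p = 0.014) and 3.03 (SE 0.78, adjusted p = 0.0234), and without those mice 1.69 and 1.89. The call was kept in all 9 fits that left out 1 mouse for miR-Ctrl BDL and in 6 of 9 for anti-miR-873-5p BDL, where it was lost without no BDL mouse 1, 2 or 3 (adjusted p of 0.0558 to 0.0578). Phgdh had 0 to 0.343 normalized counts in no BDL, at most 4 reads in any mouse, 1.55 to 1.92 in miR-Ctrl BDL and 0.937 to 2.36 in anti-miR-873-5p BDL, with log2 fold changes of 3.25 (adjusted p = 0.00104) and 3.34 (adjusted p = 0.00448). MiR-Ctrl mouse 3, at 1.67, was not the highest of its group for Phgdh.

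Slc7a1, a carrier of cationic amino acids, had 0.773 to 1.23 normalized counts in no BDL, 1.87 to 3.5 in miR-Ctrl BDL and 1.62 to 3.34 in anti-miR-873-5p BDL. Slc7a1 rose in both comparisons, by 1.32 (SE 0.25, adjusted p = 0.00303) and 1.33 (SE 0.26, adjusted p = 0.00811) on the log2 scale. Of the genes outside the rule for naming, and so named after their values were seen, the cystine and leucine carriers Slc7a11 and Slc7a5 and the synthetases Gars, Lars and Wars also rose in miR-Ctrl BDL and Shmt2 fell, while in anti-miR-873-5p BDL Gars rose. Their log2 fold changes in miR-Ctrl BDL were 0.41 to 1.29, and -0.50 for Shmt2.

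**Figure D4:**
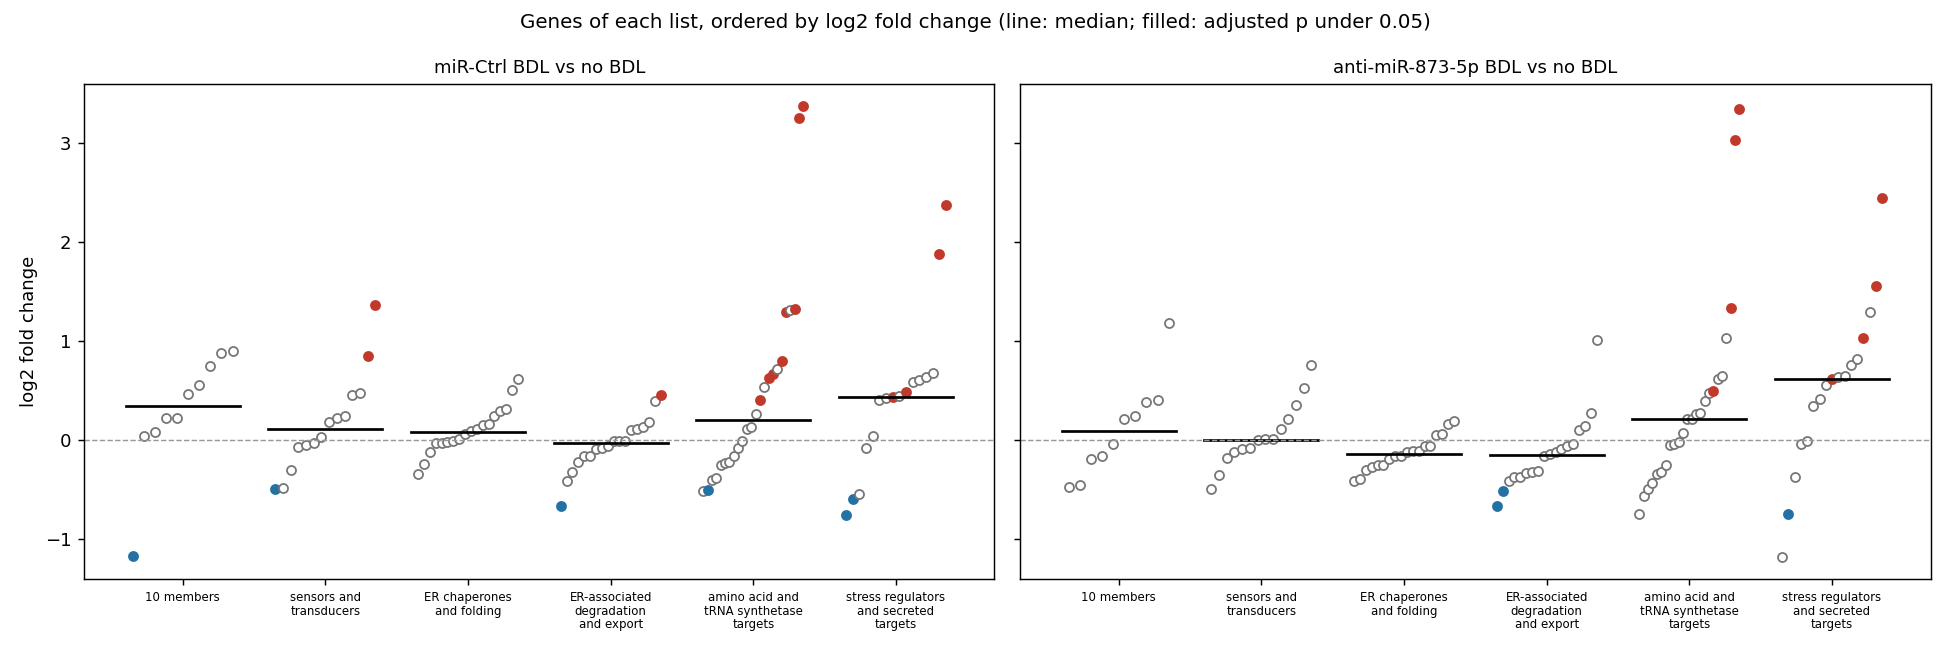
Log2 fold change (vertical axis) of each tested gene of the 10 members and of the 5 other lists, ordered within a list, for miR-Ctrl BDL (left) and anti-miR-873-5p BDL (right) against no BDL, with the list median as a line and filled points for an adjusted p under 0.05. Filled points make up 37.5% of the amino acid list and 37.5% of the stress regulator list on the left, beside 35.7% of all genes, and 0% of the chaperones.

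Of 16 stress regulators and secreted targets tested in miR-Ctrl BDL 4 rose and 2 fell, and of 17 in anti-miR-873-5p BDL 4 rose and 1 fell (37.5% and 29.4%). The first share is near the 35.7% of all genes, the second stands beside 21.5%, and neither was tested against all genes. Ddit4, an inhibitor of mTORC1 that ATF4 induces, had 2.76 to 13 normalized counts in no BDL, 16, 18.5, 87.8 and 9.77 in miR-Ctrl BDL and 14.3, 100, 16.8 and 8.4 in anti-miR-873-5p BDL. Its log2 fold changes were 2.37 (SE 0.68, adjusted p = 0.0222) and 2.44 (SE 0.74, adjusted p = 0.0417), and without the mouse of each group that the table of the 2 BDL groups lacks they were 1.23 (adjusted p = 0.0535) and 1.06 (adjusted p = 0.11), which was not past the threshold. Leaving out other single mice also lost these calls, so that 5 and 3 of 9 such fits kept them. Nupr1, a chromatin-associated stress protein that also passed the filter through the BDL mice alone, had 0.762 to 2.3 normalized counts in no BDL, 2.41 to 6.16 in miR-Ctrl BDL and 2.25 to 5.65 in anti-miR-873-5p BDL, and rose by 1.88 (adjusted p = 0.00419) and 1.55 (adjusted p = 0.025) on the log2 scale, a call kept in 9 and 3 of 9 fits without 1 mouse. Vegfa, an angiogenic factor, fell by 0.76 (adjusted p = 0.0339) and 0.75 (adjusted p = 0.0423), from 128 to 207 normalized counts in no BDL to 70.4, 78.7, 162 and 87.9 and to 112, 145, 80.6 and 66.7. The call of Vegfa was kept in 2 of 9 fits without 1 mouse in either comparison, and with scaling by library size alone its log2 fold changes stood at -0.01 and 0.03. Tnfrsf10b and Nfe2l2 also rose and Ppp1r15b fell in miR-Ctrl BDL, and Tnfrsf10b and Sesn2 rose in anti-miR-873-5p BDL, all named after their values were seen.

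Among 18 genes of ER-associated degradation and export 1 rose and 1 fell in miR-Ctrl BDL, and 2 fell in anti-miR-873-5p BDL, which is 11.1% in both, below the 35.7% and 21.5% of all genes. Derl2, a channel component of the degradation complex that Herpud1 joins, had 134, 116, 88.1, 104 and 74.1 normalized counts in no BDL, 62.4, 60.6, 51.7 and 81.2 in miR-Ctrl BDL and 77.8, 59.5, 62.8 and 54.6 in anti-miR-873-5p BDL. It was lower in both, with log2 fold changes of -0.67 (SE 0.19, adjusted p = 0.0222) and -0.67 (SE 0.19, adjusted p = 0.0296), kept in 6 and 4 of 9 fits without 1 mouse, and with scaling by library size alone the log2 fold change was 0.16 in both. Of the other scaffold genes, Sel1l, named after its value was seen, fell in anti-miR-873-5p BDL by 0.52 on the log2 scale (adjusted p = 0.0485). That call was fragile. In that comparison 0 of the other pathway genes were called lower without no BDL mouse 1, 2 or 4. The same held without anti-miR-873-5p mouse 3 or 4, and with scaling by library size alone, so Sel1l lost its call in each of these fits. Spcs2, a subunit of the signal peptidase, had 66.7 to 104 in no BDL and 98 to 122 in miR-Ctrl BDL. Spcs2 rose by 0.45 on the log2 scale (SE 0.16, adjusted p = 0.0481), a call that was kept in 2 of 9 fits without 1 mouse.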

How the data were processed

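Per the labels and the study's methods, libraries of total liver RNA were made with the TruSeq RNA v2 kit, which does not mark strand, and sequenced as single reads of 50 nt. The submitters' processing notes list CASAVA 1.8.2, FastQC, Trim Galore, TopHat, DESeq2 and the build mm10; the program and annotation behind the counts are not given in the sources used here. The authors deposited raw read counts per Entrez gene in 3 tables, 1 per comparison, and all of their columns were used. Reads without molecular identifiers carry counting error beside the spread between mice.

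Symbols were matched through RefSeq for 23008 of 23079 and 23666 of 23725 identifiers. In R 4.3.3 each table was filtered with filterByExpr, scaled by TMM and tested with the quasi-likelihood test of edgeR 4.0.16, adjusting p over all genes tested after Benjamini and Hochberg. Standard errors were obtained as the log2 fold change over the root of the F statistic. The script was tested on simulated data. Normalized counts of single mice are CPM (counts scaled to a common library size) on 1 TMM scale over the 13 mice. Levels per kilobase used merged GENCODE M21 exons. DESeq2 1.42.0, other filters and scalings, a mouse number block and leaving out each mouse were alternatives.

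The members and lists were chosen with earlier results of these data known. Besides members, the genes named are Ern1, Eif2ak3, Atf6 and, per list, the 3 with the largest absolute log2 fold change among genes that passed in miR-Ctrl BDL against no BDL.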

Additional observations from a re-analysis of the deposited data

Results flagged for a closer look

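Dixon's test at 95% was applied, within groups of 4 or 5 mice, to the 10 members and 13 other named genes, 69 pairs of a gene and a group, and it marked 13 single values as far from the others of their group. Chance alone marks about 1 in 20 groups where values are normally distributed. The test was run on normalized counts without a log, so the rate here may be higher. The pairs also share mice, so the marks are not independent.

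Of these, 5 were high values of miR-Ctrl mouse 3, with normalized counts of 163 for Atf4, 34.6 for Trib3, 57.4 for Asns, 24.1 for Psat1 and 87.8 for Ddit4. Anti-miR-873-5p mouse 2 was marked for 39.3 normalized counts of Trib3, 466 of Herpud1 and 100 of Ddit4. The table of the 2 BDL groups lacks both mice. In the mice without BDL, Atf3 was marked at 39.9 in mouse 1, Ern1 at 17.6 in mouse 2 and Nupr1 at 2.3 in mouse 5. Low values were marked for Ddit3 at 8.31 in anti-miR-873-5p mouse 1 and for Eif2ak1 at 27 in miR-Ctrl mouse 1.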

How the results depend on the processing

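Of 388, 390 and 320 alternative fits of single named genes in miR-Ctrl BDL against no BDL, anti-miR-873-5p BDL against the same mice, and the 2 BDL groups, 367, 366 and 276 kept the sign of the log2 fold change. Calls were lost in 28, 30 and 0 of these fits and gained in 7, 19 and 0. Herpud1 in miR-Ctrl BDL lost its call only with scaling by library size alone. The size factors of DESeq2 in edgeR, both other filters and DESeq2's Wald test turned no sign. Between the BDL groups 44 of 320 fits turned sign, with 0 values past the threshold, and some turned from values far from 0, such as Chac1 from 1.15 to -0.24 with all 4 mice. Xbp1 could not be fitted with all 3 groups or all 4 BDL mice, since its counts differ between tables. The cause of the changes below was not tested. The 3 mice per group limit the comparison of the BDL groups, and low counts limit genes such as Phgdh, with at most 4 reads in any mouse without BDL.

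With scaling by library size alone, 9635 genes, 5 members and 74 pathway genes passed in miR-Ctrl BDL and 10194, 5 and 63 in anti-miR-873-5p BDL. There the log2 fold changes turned sign for Eif2ak1 (0.29), Derl2 (0.16), Ern1 (0.55) and Atf6 (0.74) in miR-Ctrl BDL and for Atf4 (0.74), Hspa5 (0.72), Xbp1 (0.36), Herpud1 (0.33), Dnajb9 (0.69), Eif2ak1 (0.44), Derl2 (0.16), Vegfa (0.030), Ern1 (0.38) and Atf6 (0.70) in anti-miR-873-5p BDL. For the BDL groups Asns (0.030) and Phgdh (0.0018) turned. DESeq2's Wald test called 1 member and 17 pathway genes in anti-miR-873-5p BDL compared with no BDL, and 30 genes between the BDL groups.

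With only the BDL mice of the table of the 2 BDL groups, 2 members passed in miR-Ctrl BDL, and 4317 genes, 1 member and 18 pathway genes in anti-miR-873-5p BDL. Log2 fold changes turned sign for Atf4 (-0.36), Ddit3 (-3.59e-05), Trib3 (-0.50), Xbp1 (-0.52), Asns (-0.85) and Chac1 (-0.93) in miR-Ctrl BDL and for Hspa5 (0.059) and Asns (-0.90) in anti-miR-873-5p BDL. Between the BDL groups, all 3 groups in 1 fit and all 4 mice of each group gave -0.083 and -0.076 for Atf4, -0.24 and -0.24 for Chac1, -0.35 and -0.34 for Psat1, 0.082 and 0.086 for Phgdh, 0.082 and 0.093 for Ddit4, -0.34 and -0.33 for Nupr1 and -0.069 and -0.065 for Atf6.

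The study describes no pairing by mouse number. Deviations of equally numbered mice correlated at -0.0889 to 0.0362 in miR-Ctrl BDL and -0.198 to 0.074 in anti-miR-873-5p BDL, each with no BDL. Between the BDL groups, over the numbers they share, the correlations were -0.0157 and 0.349. The second was that of mouse 1, which correlated best with its own number. With so few mice these values cannot exclude pairing. With the mouse number as a replicate block 4063, 2195 and 0 genes passed, with 1, 0 and 0 members and 17, 9 and 0 pathway genes. The block turned the sign of Xbp1 (-0.10) and Chac1 (-0.14) in miR-Ctrl BDL, Atf4 (0.046) in anti-miR-873-5p BDL and Slc7a1 (-0.081) and Atf6 (-0.020) between the BDL groups.

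Leaving out each mouse in turn, 1 to 2 members and 13 to 26 pathway genes passed in miR-Ctrl BDL, and 1261 to 4317 genes, 0 to 1 members and 4 to 18 pathway genes in anti-miR-873-5p BDL, where the number of genes was 4317 without anti-miR-873-5p mouse 2 and at most 1824 without anti-miR-873-5p mouse 3 or 4 or no BDL mouse 1, 2, 3 or 4. The second member in miR-Ctrl BDL was Atf3 without no BDL mouse 1, Dnajb9 without miR-Ctrl mouse 1 and Xbp1 without miR-Ctrl mouse 3. For the BDL groups 0 to 1 genes passed, the 1 without anti-miR-873-5p mouse 3. In miR-Ctrl BDL Ddit4 lost its call without no BDL mouse 1, 3 or 4 or miR-Ctrl mouse 3, Derl2 without no BDL mouse 2 or miR-Ctrl mouse 1 or 2, Vegfa without any but no BDL mouse 5 or miR-Ctrl mouse 3, and Spcs2 without any but no BDL mouse 2 or 5. In anti-miR-873-5p BDL Ddit4 lost it without no BDL mouse 1, 2, 3 or 4 or anti-miR-873-5p mouse 2 or 3, Derl2 without no BDL mouse 1, 2 or 4 or anti-miR-873-5p mouse 3 or 4, Nupr1 without no BDL mouse 1, 2, 3 or 4 or anti-miR-873-5p mouse 3 or 4, and Vegfa without any but no BDL mouse 5 or anti-miR-873-5p mouse 2.

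Log2 fold changes that turned sign without 1 mouse ranged in miR-Ctrl BDL from -0.36 to 0.19 for Atf4, -3.59e-05 to 0.35 for Ddit3, -0.50 to 1.22 for Trib3, -0.52 to 0.31 for Xbp1, -0.85 to 2.16 for Asns, -0.93 to 0.82 for Chac1 and -0.19 to 0.018 for Atf6. In anti-miR-873-5p BDL they ranged from -0.32 to 0.11 for Atf4, -0.43 to 0.098 for Hspa5, -0.90 to 1.62 for Asns, -0.12 to 0.54 for Chac1 and -0.0047 to 0.29 for Spcs2. Between the BDL groups the ranges were -0.085 to 0.16 for Atf4, -0.18 to 0.16 for Xbp1, -0.95 to 0.27 for Asns, -0.081 to 0.12 for Eif2ak1, -0.22 to 0.070 for Derl2, -0.57 to 0.47 for Psat1, -0.49 to 0.18 for Phgdh, -0.095 to 0.23 for Slc7a1, -0.40 to 0.074 for Ddit4, -0.40 to 0.28 for Nupr1, -0.11 to 0.28 for Vegfa and -0.039 to 0.11 for Atf6.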
